A study of Mus musculus with 2 samples.

Results

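Cone photoreceptors are the cells of daylight and colour vision, and 10 genes of their light-response cascade were examined in mouse eye cups: the opsins Opn1sw and Opn1mw, the arrestin Arr3, the transducin subunits Gnat2, Gnb3 and Gngt2, the phosphodiesterase subunits Pde6c and Pde6h, and the channel subunits Cnga3 and Cngb3. The members were chosen by name, and every probe set whose platform annotation gave 1 of these symbols alone was taken. This found 13 of the 45101 probe sets of the array, belonging to 9 of the 10 genes. Cnga3 had no probe set under its symbol alone in the annotation used here, and no value is given for it. Across the array, 18193 genes had a probe set of their own.

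The study set eye cups of mice labelled Mfsd2a KO beside eye cups of wild-type (WT) mice, all at postnatal day 13, with no other treatment named. The protein made from Mfsd2a sits in cell membranes and imports lysophosphatidylcholine that bears docosahexaenoic acid, a fatty acid abundant in photoreceptor outer segments. RNA from 6 animals of a genotype was pooled and read on 1 Affymetrix mouse expression array, so that the series holds 2 arrays. The submitters' design text counts 6 eye cups per pool and their sample descriptions 6 animals. An eye cup is the retina with the pigment epithelium, choroid and sclera behind it, and the cornea, lens and optic nerve had been removed. The part of Mfsd2a that is deleted, the strain and the sexes pooled are not given in the sources used here. Because each genotype is 1 pool with no replicate, no difference below has a test or an error between animals.

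In a cone, light changes the shape of an opsin, which activates transducin, a protein of 3 subunits. Transducin lifts the inhibitory subunit off a phosphodiesterase, cyclic GMP is broken down, and the cyclic GMP gated channel closes. Arrestin then binds the opsin and ends the signal. Rods use the same steps with their own genes. Most mouse cones hold both opsins in unequal amounts, with medium wavelength opsin richer in the dorsal retina and short wavelength opsin, which absorbs ultraviolet light, richer in the ventral retina. During development short wavelength opsin appears first, and thyroid hormone acting on a receptor encoded by Thrb is needed for medium wavelength opsin.

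The 2 arrays were alike in scale, with median intensities of 93.6 on the array labelled KO and 94.4 on the WT array. The 1 probe set of Mfsd2a read 244 on the array labelled KO and 181 on the WT array, against the direction of the label. Where its probes lie relative to the deletion was not analysed here, so the value may check nothing, and the sample is called the array labelled KO throughout. A gene was represented by its brightest probe set and counted as measured when that probe set reached the median of either array over probe sets other than controls, which was 93.4 on the array labelled KO and 94.2 on the WT array. This held for 11568 genes. Differences are log2 intensity on the array labelled KO minus log2 intensity on the WT array. Their median over the measured genes was 0.014, and the central 95% lay between -0.21 and 0.23. Probe sets of the same gene differed among themselves with an SD of 0.089 on the log2 scale (5201 genes read by more than 1 probe set past that floor). This SD comes from the same 2 arrays and holds no variation between animals or pools.

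Of the 10 cone genes, 8 were measured, with 12 of the 13 probe sets above the floor. Of the cone genes 4 were below 0 and 4 above 0, where 4908 (42.4%) of all measured genes were below and 6454 above. Their median log2 difference was -0.018, against 0.014 over all measured genes. At the size of 1.2-fold, 1 cone gene was lower on the array labelled KO, against 1.17% of all measured genes. At that size 0 cone genes were higher, against 1.79% of all measured genes. At 1.1-fold, 2 cone genes were lower, where 6.6% of measured genes were, and 0 were higher, where 9.8% of measured genes were. Opn1mw was the gene past 1.2-fold, and Gnat2 joined it at 1.1-fold. At 1.5-fold 0 cone genes were lower, against 0.0864% of measured genes, and 0 were higher, against 0.138%. In bulk RNA, fewer cones and less RNA per cone cannot be told apart.

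**Figure D1:**
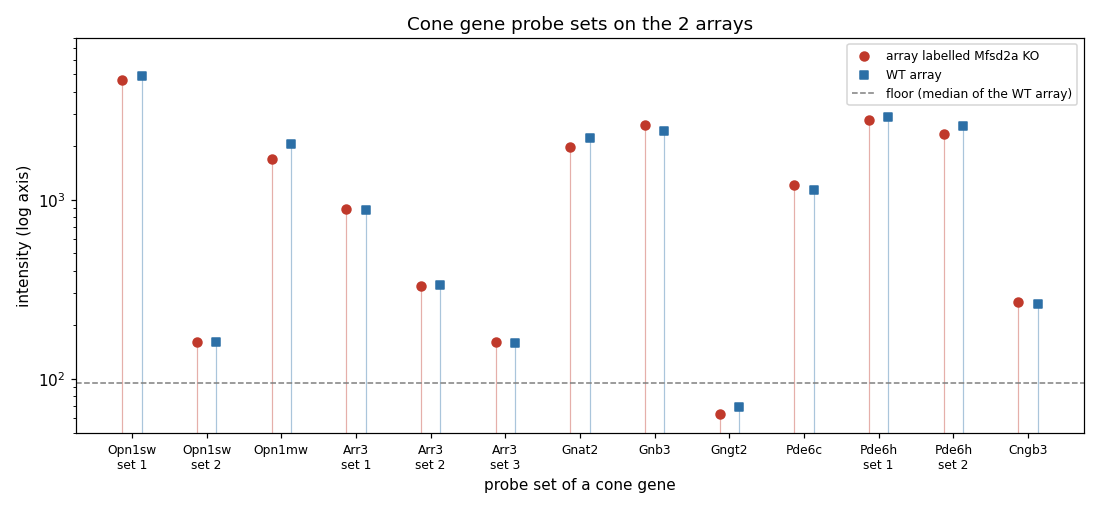
Intensity (log axis) of each of the 13 cone gene probe sets, with circles for the array labelled Mfsd2a KO and squares for the WT array, 1 value each. Only Gngt2, at 63.6 on the array labelled KO and 69.1 on the WT array, lies under the dashed floor, and the paired values of every probe set lie close to each other.

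The opsins start the cascade, and Opn1mw stood further from 0 than Opn1sw. Opn1mw, the medium wavelength opsin, read 1689 on the array labelled KO and 2047 on the WT array, a log2 difference of -0.28 or 1.21-fold lower. It has 1 probe set (1419723_at), so no second reading of the gene was at hand. Of the 11568 measured genes, 110 had a lower difference, which is 0.951%. Opn1sw, the short wavelength opsin, read 4669 on the array labelled KO and 4906 on the WT array in its brighter probe set (1449132_at), a log2 difference of -0.071. Its dimmer probe set (1418552_at) read 160 on the array labelled KO and 161 on the WT array, a log2 difference of -0.0090. Both readings of Opn1sw were smaller in size than 0.089, the SD among probe sets of 1 gene. The difference of Opn1mw was larger than that SD, and so were those of Gnat2, Gnb3 and Pde6c. That SD does not measure how far a gene varies between pools, so no difference is graded by it. The log2 difference of Opn1mw minus that of Opn1sw was -0.21, and it lay between -0.24 and -0.20 under 7 other ways of processing. With 1 pool per genotype this gap between the opsins could not be tested.

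Gene starts of 4 cone genes are printed because they set the 2 members past 1.1-fold (Opn1mw and Gnat2) beside the other opsin (Opn1sw) and the other member on the X chromosome (Arr3). Each is the RefSeq window of assembly GRCm38.p6 that begins 250 bases before the gene start and ends 50 bases after it, read 5′ to 3′ on the strand of the gene. Capitals mark TAATC or its reverse complement GATTA, the core letters bound by CRX and OTX2, homeobox factors of photoreceptors. The windows are chrX:74127216-74127515 on the plus strand for Opn1mw, chr3:108092816-108093115 on the plus strand for Gnat2, chr6:29380464-29380763 on the minus strand for Opn1sw and chrX:100605247-100605546 on the plus strand for Arr3.
Opn1mw: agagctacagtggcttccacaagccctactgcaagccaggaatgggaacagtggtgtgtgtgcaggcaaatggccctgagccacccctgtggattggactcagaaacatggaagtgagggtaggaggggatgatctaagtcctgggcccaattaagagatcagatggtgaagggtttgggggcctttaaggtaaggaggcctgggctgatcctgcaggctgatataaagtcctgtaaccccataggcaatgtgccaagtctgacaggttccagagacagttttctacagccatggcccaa
Gnat2: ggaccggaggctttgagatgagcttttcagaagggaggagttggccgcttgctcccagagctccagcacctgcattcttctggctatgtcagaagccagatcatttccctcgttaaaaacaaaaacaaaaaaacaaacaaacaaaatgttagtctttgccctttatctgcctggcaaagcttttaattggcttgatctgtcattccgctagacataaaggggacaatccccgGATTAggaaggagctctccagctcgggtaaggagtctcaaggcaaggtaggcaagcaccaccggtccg
Opn1sw: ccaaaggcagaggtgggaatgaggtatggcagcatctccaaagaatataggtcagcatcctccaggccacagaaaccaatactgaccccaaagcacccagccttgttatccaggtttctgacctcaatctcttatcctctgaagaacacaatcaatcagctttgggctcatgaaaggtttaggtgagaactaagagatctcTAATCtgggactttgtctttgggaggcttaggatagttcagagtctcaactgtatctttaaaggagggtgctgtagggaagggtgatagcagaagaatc
Arr3: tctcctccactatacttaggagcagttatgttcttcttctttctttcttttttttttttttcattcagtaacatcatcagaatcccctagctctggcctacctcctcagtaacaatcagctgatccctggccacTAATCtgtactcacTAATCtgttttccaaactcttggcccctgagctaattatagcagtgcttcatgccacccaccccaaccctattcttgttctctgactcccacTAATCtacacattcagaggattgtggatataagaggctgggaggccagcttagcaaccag

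The core letters stood 3 times in the window of Arr3, 116, 102 and 10 bases before the gene start. They stood 1 time in that of Opn1sw, 49 bases before the start, and 1 time in that of Gnat2, 18 bases before the start. The window of Opn1mw held none. So 1 of the members past 1.1-fold held a match and the other did not. Over all 32851 promoter windows of the table, 22% held the core on either strand. The longer form TAATCC, or its reverse complement GGATTA, which contains the core, stood only in Gnat2 among the members and in 7.06% of all windows. AGGTCA or TGACCT, the element bound by many nuclear receptors, thyroid hormone receptors among them, stood in Opn1sw 202 and 132 bases before the start, in no other member and in 16.3% of all windows. The table held windows for 6 of the 10 members, these 4 with Pde6h and Cnga3, and the last 2 held none of these letters. A match describes the letters of the window only and is neither a bound site nor a cause of a difference. The shorter core was searched after the longer form had been counted.

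Of the transducin genes, the alpha subunit and the beta subunit lay on opposite sides of 0. Gnat2, the cone alpha subunit that carries the signal to the phosphodiesterase, read 1978 on the array labelled KO and 2208 on the WT array, a log2 difference of -0.16 or 1.12-fold lower, and 4.89% of measured genes were lower still. Gnb3, the beta subunit, read 2615 on the array labelled KO and 2409 on the WT array, a log2 difference of 0.12 or 1.09-fold higher. Both had 1 probe set (1422907_at for Gnat2 and 1449159_at for Gnb3). Gnb3 is also expressed by ON bipolar cells, so its level is not a measure of cones alone. In the list of bipolar cell genes, 7 of 11 measured members were above 0, against 6454 of all 11568 measured genes. The list had a summed intensity of 18724 on the array labelled KO and 17905 on the WT array. Its median log2 difference was 0.015, with Isl1 (0.18) and Pcp2 (0.13) as the furthest from 0. Genes of the ON bipolar cascade, named after their values were seen, lay on both sides of 0. Trpm1 at -0.11, Gng13 at -0.075, Rgs11 at -0.020 and Nyx at -0.018 were below, and Gpr179 at 0.053 and Gnao1 at 0.049 above. The part of bipolar cells in the value of Gnb3 was not tested. Gngt2, the cone gamma subunit, read 63.6 on the array labelled KO and 69.1 on the WT array in its 1 probe set (1428733_at), a log2 difference of -0.12. It lay below the floor on both arrays, so the size of that difference is uncertain.

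The phosphodiesterase genes lay on opposite sides of 0, and all their probe sets were short of 1.2-fold. Pde6c, the catalytic subunit of the cone enzyme, read 1203 on the array labelled KO and 1129 on the WT array (1450830_a_at), a log2 difference of 0.091. Pde6h, the inhibitory subunit, read 2784 on the array labelled KO and 2888 on the WT array in its brighter probe set (1450766_at), a log2 difference of -0.053. Its other probe set (1450765_a_at) read 2316 on the array labelled KO and 2570 on the WT array, a log2 difference of -0.15. The readings of Pde6h agreed in sign and lay 0.097 apart on the log2 scale, which is close to the median gap of 0.098 between the lowest and highest probe set of a gene. The choice of probe set thus decided whether Pde6h passed 1.1-fold.

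The channel and the arrestin were nearest to 0. Cngb3, the modulatory subunit of the cone channel, read 267 on the array labelled KO and 263 on the WT array (1450492_at), a log2 difference of 0.025. Arr3, the cone arrestin, read 890 on the array labelled KO and 879 on the WT array in its brightest probe set (1450329_a_at), a log2 difference of 0.017, or -0.0025 once a loess trend of the difference on level was removed. Its dimmer probe sets read 328 on the array labelled KO and 335 on the WT array (1425232_x_at), and 159 on the array labelled KO and 157 on the WT array (1441144_at). The log2 differences of the 3 probe sets of Arr3 spanned 0.050 and had both signs. Probe sets whose names end in _x_at may also bind other transcripts.

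**Figure D2:**
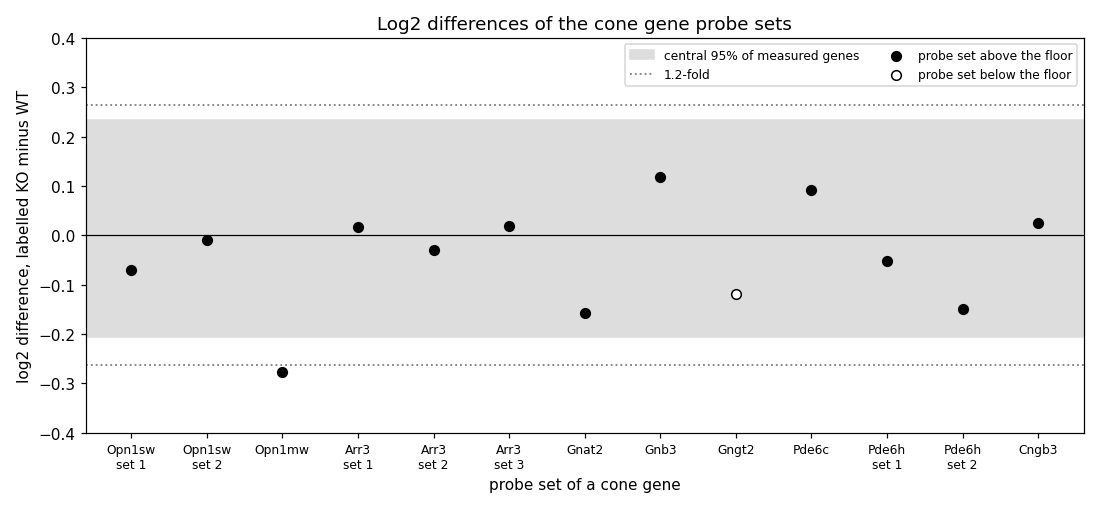
Log2 difference, array labelled Mfsd2a KO minus WT array, of each cone gene probe set (filled, above the floor; open, below it), with the central 95% of measured genes shaded and dotted lines at 1.2-fold. Opn1mw at -0.28 is the 1 point outside the shaded range, and the others lie between -0.16 and 0.12.

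Bright genes differed less between the arrays than dim ones, and 5 of the 8 measured cone genes, Opn1mw and Gnat2 included, had a mean log2 intensity between 10 and 12. Among the 2193 measured genes of that brightness, 0.638% lay at least 1.2-fold below WT and 0.456% at least 1.2-fold above. The shares at 1.1-fold were 3.33% below and 4.7% above. Each share was under that of all measured genes at the same size. This range of brightness was chosen after the values had been seen.

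**Figure D3:**
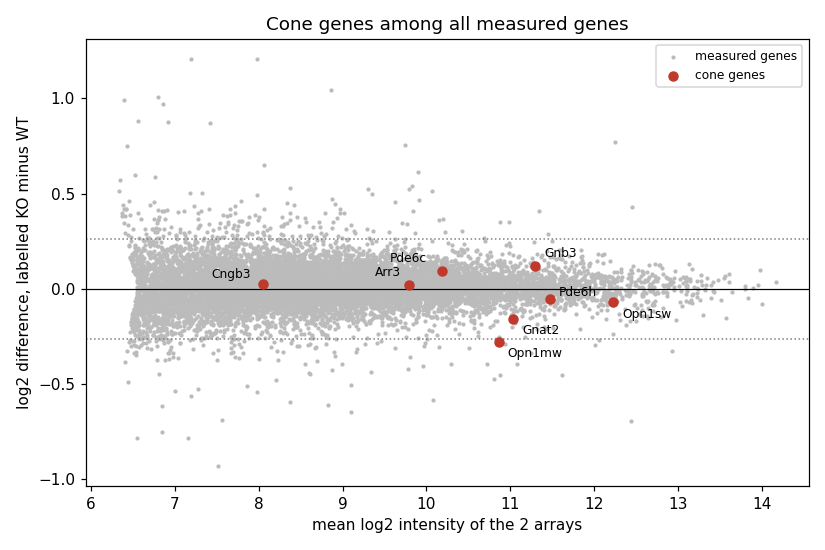
Log2 difference, array labelled Mfsd2a KO minus WT array, against the mean log2 intensity of the 2 arrays for the 11568 measured genes (grey), with the 8 measured cone genes in red and dotted lines at 1.2-fold. Opn1mw (-0.28) lies under the lower dotted line, while Gnat2 (-0.16), Gnb3 (0.12) and the other cone genes lie between the lines.

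Opn1mw and Arr3 lie on the X chromosome and the other members on autosomes, and the pools differed in sex-linked transcripts. Xist, the RNA that silences an X chromosome in female cells, read 4357 on the array labelled KO and 7055 on the WT array. The Y-linked gene Uty read 157 on the array labelled KO and 78.2 on the WT array, and Kdm5d read 164 on the array labelled KO and 89.4 on the WT array, both under the floor in WT and measured only through the other array. Eif2s3y, above the floor on both arrays, read 336 on the array labelled KO and 214 on the WT array. The 361 measured genes of the X chromosome had a median log2 difference of 0.026, against 0.014 for the genes of the autosomes, and 3 of them, Xist and Opn1mw included, were at least 1.2-fold lower, which is 0.831% against 1.18% of autosomal genes, while 11 were at least 1.2-fold higher, which is 3.05% against 1.72%. Arr3, at 0.017, was in neither count. The part of sex make-up in the value of Opn1mw was not tested.

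The rod genes that do the same steps gave a second view of the photoreceptors. The 9 rod counterparts analysed here were all measured, with 6 below 0 (66.7%, against 42.4% of all measured genes). The median log2 difference of the rod genes was -0.019, next to -0.018 for the cone genes. That closeness depended on the floor, since with none the medians were -0.053 for the cone genes, Gngt2 included, and -0.019 for the rod genes. With the loess trend removed they were -0.035 for the cone genes and -0.028 for the rod genes. None of them was 1.2-fold apart. Summed over the measured genes, the intensity was 87460 on the array labelled KO and 88776 on the WT array for the rod genes, and 16095 on the array labelled KO and 16730 on the WT array for the cone genes. Gnat1, the rod transducin alpha subunit, differed by -0.079 on the log2 scale, on the same side of 0 as Gnat2. Gnb1, the beta subunit of rods and many other cells, differed by -0.011 and Gngt1, the rod gamma subunit, by -0.019. The other probe sets of Gngt1 differed by -0.24 (204 on the array labelled KO and 242 on the WT array), -0.041 and -0.029. Pde6a and Pde6b, the catalytic subunits of the rod enzyme, differed by -0.14 and 0.018, and their inhibitory subunit Pde6g by -0.051. The other probe set of Pde6g differed by -0.072. The rod arrestin Sag differed by 0.034, and the rod channel subunits Cnga1 and Cngb1 by -0.027 and 0.00084.

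Set side by side, 7 pairs of a cone and a rod gene were measured on both sides. The cone gene had the higher difference in 4 pairs and the lower in 3, with a median gap of 0.024 on the log2 scale. Pde6c stands in 2 of these pairs, and of the 6 cone genes 3 lay above and 3 below their rod counterparts. The widest gaps were Pde6c over Pde6a (0.23) and Gnb3 over Gnb1 (0.13), and the narrowest was Pde6h against Pde6g (-0.0016). For Gnat2 minus Gnat1 the gap was -0.080. None of these gaps could be tested with 1 array per genotype.

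**Figure D4:**
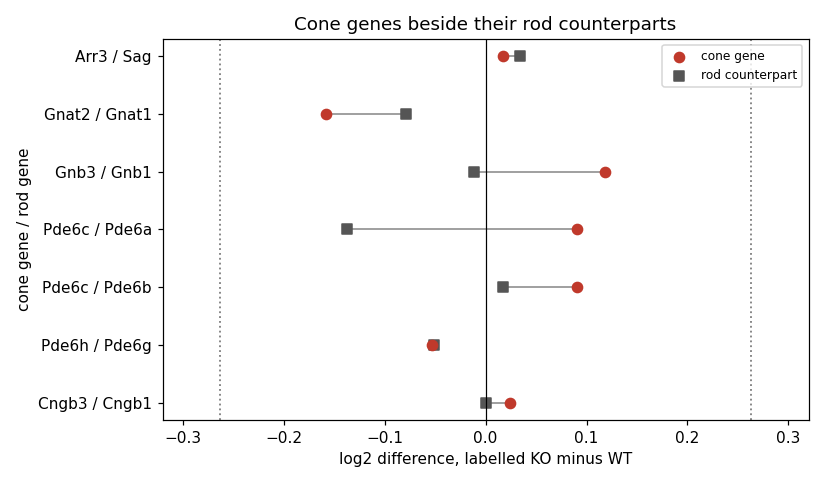
Log2 difference, array labelled Mfsd2a KO minus WT array, of each measured cone gene (circle) and its rod counterpart (square), joined by a line, with dotted lines at 1.2-fold. The circles lie right of the squares in 4 of 7 pairs, most widely for Pde6c beside Pde6a, and no point passes a dotted line.

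Among the genes that shut the cascade off, set its calcium feedback or assist its proteins, 16 were measured, with a median log2 difference of -0.13. Of these 16 genes 12 were below 0 (75%, against 42.4% of all measured genes). At least 1.2-fold lower were 3 of the 16 (18.75% against 1.17% of all measured genes), namely Guca1a, Grk1 and Guca1b. Their values were known when the list was written. This count and the direction of the list were therefore partly fixed by the choice of genes. Without these 3, 9 of 13 were below 0 and the median was -0.024. That 0 of the 13 were at least 1.2-fold lower was fixed by leaving out the genes past that size. Gucy2e (-0.19), a photoreceptor guanylate cyclase, was under the floor on the array labelled KO and entered only through WT. Guca1a, a calcium sensor that drives the cyclase of rods and cones, read 2671 on the array labelled KO and 3663 on the WT array, a log2 difference of -0.46. Grk1, the opsin kinase that mouse cones share with rods, read 510 on the array labelled KO and 641 on the WT array, a log2 difference of -0.33. Guca1b, the second calcium sensor, differed by -0.33. Short of 1.2-fold, and named after their values were seen, were Rgs9 (-0.24) and its anchor Rgs9bp (-0.21), which speed the shut-off of transducin. Slc24a2, the sodium, calcium and potassium exchanger of cones, differed by -0.16, and Kcnv2, a potassium channel subunit of rods and cones, by 0.16.

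Other genes known from cones were all short of 1.2-fold. All 7 were measured, Sall3 only through the WT array. Slc24a2, also counted among the shut-off and calcium genes, is in this list too and was below 0. Over the 6 above the floor on both arrays, 4 were below 0 and the median log2 difference was -0.055. Of all 11322 genes above the floor on both arrays, 4787 were below 0. Sall3, a transcription factor of cones and horizontal cells, read 81.7 on the array labelled KO and 95.4 on the WT array, a log2 difference of -0.23, and lay below the floor on the array labelled KO. Thrb, the receptor required for medium wavelength opsin, read 110 on the array labelled KO and 122 on the WT array, a log2 difference of -0.15. It was named after its value was seen and was near the floor on both arrays. Its partner Rxrg, which holds short wavelength opsin down in dorsal cones, differed by -0.039. The 2 other cone genes above 0 were Otop3 (0.13) and Kcne2 (0.017), and Kcne2 was the brightest of this list (1363 on the array labelled KO and 1347 on the WT array). Among the 11 regulators of photoreceptor genes above the floor on both arrays, Thrb and Rxrg included, 5 were below 0 and 6 above, with a median log2 difference of 0.041. The regulator furthest above 0 was Pias3 (0.19), a SUMO ligase of photoreceptors, followed by Otx2 (0.14) and Crx (0.11), which were named after their values were seen.

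**Figure D5:**
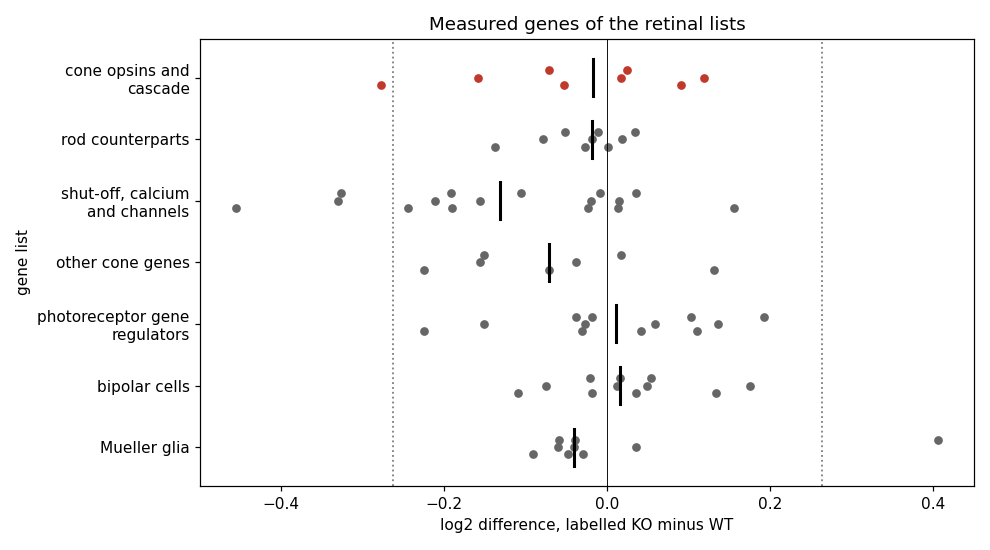
Log2 difference, array labelled Mfsd2a KO minus WT array, of the measured genes of 7 lists of retinal genes, with 1 point per gene, a black bar at the median and dotted lines at 1.2-fold. The cone genes (red) lie on both sides of 0 with a median of -0.018, and the list of shut-off and calcium genes, chosen with 3 of its values known, has a median of -0.13.

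Genes of other tissues and of the Mueller glia of the retina differed between the pools, where 42.4% of all measured genes were below 0. The cornea and lens had been removed from the eye cups, and the source of the signal of their genes was not tested. Pigment epithelium genes were below 0 in 7 of 9, with a median log2 difference of -0.11 and a summed intensity of 30284 on the array labelled KO and 32355 on the WT array. Ttr alone, at 0.019, gave 16009.5 of that sum on the array labelled KO and 15804 on the WT array. Of the pigment epithelium genes 4 were at least 1.2-fold lower (44.4% against 1.17% of all measured genes). They were Rdh5 (-0.34), Rgr (-0.30) and Lrat (-0.31), which recycle retinoids, and Mlana (-0.28), a gene of pigment cells. Rpe65 (-0.078), Slc16a8 (-0.10) and Tyr (-0.11) were below 0 but short of that size, and Trpm3 (0.012) was above 0, as Ttr was. Mueller glia genes were below 0 in 7 of 9 with a median of -0.041 (summed intensity 25893 on the array labelled KO and 25842 on the WT array). Crym stood apart from them at 0.41, with Abca8a next furthest from 0 at -0.090. Cornea genes were below 0 in 7 of 7 (7212 on the array labelled KO and 7575 on the WT array). Tkt alone, at -0.025, gave 6248 of that sum on the array labelled KO and 6357 on the WT array. At least 1.2-fold lower were 4 cornea genes (57.1% against 1.17% of all measured genes). They were the keratins Krt14 (-0.56), Krt4 (-0.53) and Krt5 (-0.33) and the corneal enzyme Aldh3a1 (-0.62), which was above the floor only in WT. The keratin Krt12 (-0.11) and Upk1b (-0.060) were short of that size, as Tkt was. Skeletal muscle genes were below 0 in 7 of 9 (3960 on the array labelled KO and 4434 on the WT array). Of the muscle genes 2, Pvalb (-0.61) and Ckm (-0.34), were at least 1.2-fold lower (22.2% against 1.17% of all measured genes). The 2 above 0 were Myh1 (0.22) and Acta1 (0.029). Lens genes were above 0 in 10 of 13 (4284 on the array labelled KO and 3786 on the WT array). Of the lens genes 3 were at least 1.2-fold higher (23.1% against 1.79% of all measured genes), the crystallins Cryga (0.40), Crygf (0.38) and Cryaa (0.35). None of these lists held a marker at 0. The 3' to 5' signal ratio of beta-actin, a measure of RNA integrity, was 1.44 on the array labelled KO and 1.49 on the WT array. The part of tissue make-up and of RNA quality in the cone values was not tested, and genotype, pool and array cannot be told apart.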

How the data were processed

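Per the labels, total RNA of eye cups was pooled by genotype and hybridised to 1 array each. The authors deposited 1 intensity per probe set on a linear scale (5.07 to 20568 on the array labelled KO, 5.15 to 20644 on the WT array). Partek 6.6 and RMA, which corrects background, equalises array distributions and combines the probes of a set, are named per the submitters' processing notes, with no settings. RMA narrows differences of dim probe sets and removes any overall difference between pools. Scanner files and detection calls were not used here.

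Of 45101 probe sets, 34958 carried 1 gene symbol, 932 several and 9211 none. Entrez identifiers of 34754 matched the RefSeq gene table of GRCm38.p6, and 0 symbols changed. A gene's value is that of its probe set brightest on average (log2). Named were all members, the rod counterparts analysed, Mfsd2a, and from every other list the genes at least 1.2-fold apart or, where fewer than 2 were, the 2 furthest from 0. Further genes of the lists were named after their values were seen. Members and lists were chosen with earlier results of these data known. Alternatives were the mean of probe sets, no _s_at or _x_at sets, a loess trend removed (span 0.3, 3 iterations), median centring, an offset of 50, a floor at the 70th percentile or none, and sizes of 1.1-fold and 1.5-fold. The steps ran in Python 3.11.15 with pandas 2.3.3, numpy 2.4.6 and statsmodels 0.14.6. Known shifts, set without noise on values made equal on both arrays, were recovered exactly, which checks the arithmetic alone. With 2 arrays in all, their number sets the precision.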

Additional observations from a re-analysis of the deposited data

How the results depend on the processing

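No paired analysis was possible because the series has a single pool for either genotype. The 1 cone gene at least 1.2-fold lower became 2 at 1.1-fold and 0 at 1.5-fold, and it stayed 1 under the other 7 alternatives, while 0 were higher under all 9. The median of the cone genes ran from -0.053 to -0.018. The lowest value came with no floor, where Gngt2 joined, and it was -0.035 with the loess trend removed. Opn1mw ran from -0.29 to -0.27, Gnat2 from -0.17 to -0.15, Gnb3 from 0.10 to 0.12 and Pde6c from 0.072 to 0.091. Pde6h ran from -0.10 to -0.052, with the mean of its probe sets lowest. Median centring moved nothing, because the median difference over all probe sets other than controls was 0. Arr3, at 0.017, was -0.0025 with the loess trend removed. Dim signal limits Gngt2, Sall3 and Thrb, and with 1 array per genotype no difference has an error between animals.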
